A study of Rattus norvegicus with 58 samples.

Results

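Transcripts of 9 acute phase proteins were followed in rat liver: Lcn2, A2m, Mug1, Orm1, Hp, Hamp, Crp, Cp and Fgb. Each gene was represented by the probe set that the platform annotation gives to its symbol alone and, where several exist, by the one of highest mean. All 9 genes were found, among 14217 genes with a probe set of a single symbol. The data are 58 Affymetrix arrays, each of liver RNA from 1 male rat. The study compared 23 glucose-intolerant with 23 glucose-normal heterogeneous stock (HS) rats, an outbred colony bred from several inbred founders. It also holds 2 arrays from each of 6 inbred strains, namely WKY, BUF, BN, M520, F344 and ACI. All rats were 17 weeks old at death and had gone without food overnight, and no group carried an engineered allele or received an agent according to the labels.

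The acute phase response is the change in plasma proteins that follows infection or injury. Interleukin-6 acts on hepatocytes mainly through the transcription factor STAT3, and interleukin-1 through NF-kB and C/EBP factors, so that hepatocytes secrete more of the positive acute phase proteins and less of the negative ones. The size and even the direction of the change for a given protein differ between species. Lcn2, lipocalin 2, withholds iron from bacteria by binding their siderophores, and neutrophils store it as well as liver making it. Hamp encodes hepcidin, the hormone that closes the iron exporter ferroportin, and it responds both to interleukin-6 and to iron through BMP and SMAD signalling. Hp, haptoglobin, binds free haemoglobin, and Cp, ceruloplasmin, is the copper-carrying ferroxidase of plasma. A2m, alpha-2-macroglobulin, traps proteases and is a major acute phase protein of the rat. Mug1, murinoglobulin 1, belongs to the same inhibitor family and is a negative acute phase protein in the rat. Crp, C-reactive protein, binds phosphocholine on microbes and dying cells and is plentiful in plasma of unchallenged rats. Orm1, orosomucoid, binds drugs and lipids in plasma, and Fgb encodes the beta chain of fibrinogen, the precursor of fibrin clots.

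Promoters are shown for Fgb, whose level followed those of Fga and Fgg, the genes of the other fibrinogen chains, and for Hamp. Neither Fgb nor Hamp was called between glucose groups or in the F test over the 6 strains described below. RefSeq's table of promoters (build GRCr8, 250 bases before to 50 after the gene start) held 7 of the 9 genes. Capitals mark matches, on either strand, to TTCNNNGAA (STAT), TTGCNNAA (C/EBP), GGCGCC (BMP response) and GGGNNTTCC (NF-kB).
Fgb (chr2:170700826-170701125, minus strand): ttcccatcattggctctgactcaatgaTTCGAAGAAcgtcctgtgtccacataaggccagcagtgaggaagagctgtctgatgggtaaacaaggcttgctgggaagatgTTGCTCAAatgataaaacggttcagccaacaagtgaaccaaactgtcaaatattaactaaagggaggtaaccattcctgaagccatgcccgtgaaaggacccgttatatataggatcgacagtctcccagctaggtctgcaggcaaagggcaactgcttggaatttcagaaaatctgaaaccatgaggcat
Fga (chr2:170671919-170672218, plus strand): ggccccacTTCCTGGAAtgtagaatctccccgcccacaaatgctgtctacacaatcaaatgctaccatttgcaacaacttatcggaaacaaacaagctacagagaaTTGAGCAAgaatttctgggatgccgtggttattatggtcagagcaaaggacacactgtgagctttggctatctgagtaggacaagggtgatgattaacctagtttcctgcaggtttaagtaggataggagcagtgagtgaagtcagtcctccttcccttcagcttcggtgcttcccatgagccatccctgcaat
Fgg (chr2:170652833-170653132, plus strand): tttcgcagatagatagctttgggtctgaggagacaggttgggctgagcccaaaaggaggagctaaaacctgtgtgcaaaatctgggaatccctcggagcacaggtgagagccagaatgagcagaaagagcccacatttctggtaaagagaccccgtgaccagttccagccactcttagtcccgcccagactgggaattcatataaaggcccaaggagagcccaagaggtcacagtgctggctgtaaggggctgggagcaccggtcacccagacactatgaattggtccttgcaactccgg
Hamp (chr1:95300222-95300521, minus strand): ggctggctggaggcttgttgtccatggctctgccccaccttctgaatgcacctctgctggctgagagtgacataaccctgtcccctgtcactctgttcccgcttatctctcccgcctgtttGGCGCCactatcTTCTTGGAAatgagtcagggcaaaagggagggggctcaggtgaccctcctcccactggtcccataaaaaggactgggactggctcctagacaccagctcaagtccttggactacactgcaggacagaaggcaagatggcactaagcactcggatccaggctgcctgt
Fgb held the STAT letters at -223 and the C/EBP letters at -141 from the start, and Fga held them at -242 and -144. Fgg held none of the 4 motifs in this window. Hamp held the BMP response letters at -129 and, beside them, the STAT letters at -117. C/EBP letters also stood in the promoters of Lcn2 at -191, Orm1 at -123 and Cp at -72, while Mug1 and Crp held no match. No motif overlapped another in these promoters. Among all 33469 promoters of the table, 8.87% held the STAT letters, 10.6% the C/EBP letters, 11% the BMP response letters and 5.92% the NF-kB letters. A match describes letters only, other forms of these sites were not searched, and binding was not measured.

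Values are log2 expression, in which a difference of 1 is a 2-fold difference, and levels of different genes' probe sets cannot be set against each other. Array medians lay between 5.33 and 5.39. Hepatocyte markers were bright, with 12 of 12 above the array median in every group. In bulk tissue, fewer cells of a type and less RNA per cell cannot be told apart. Over the 46 HS rats 6 of the genes were bright: Hp averaged 14.2, Fgb 13.8, Cp 13.6, Orm1 13.3, Hamp 13.2 and Crp 12.2. Hp lies near the top of the scale, whose highest value is 14.97, so its differences may be compressed. Mug1 averaged 8.41 and A2m 5.86, and A2m lay below its own array's median in 7 HS rats and on 3 inbred arrays. Lcn2 was dim, at 3.40, and lay below the array median in all 46 HS rats and on 11 of the 12 inbred arrays, the exception being WKY array 2.

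The 9 transcripts differed widely in how much they varied from rat to rat. The Mug1 probe set ran from 4.70 to 9.89 over the HS rats, a 36.5-fold range, and its SD of 1.11 stood at percentile 99.8 of all probe sets. Another probe set, annotated to Mug1 together with Cpamd8 and Mug1l1, was brighter and stayed between 14.11 and 14.36 (SD 0.056), and which of the 2 follows the Mug1 transcript was not settled. All Mug1 values below are those of the first. A2m (SD 0.52), Crp (SD 0.45) and Lcn2 (SD 0.41) stood at percentiles 97.1, 95.5 and 94.2. Orm1 (SD 0.32) spanned a 2.52-fold range and Hamp (SD 0.29) a 2.70-fold range. The probe sets used for Hp, Cp and Fgb were the steadiest, with SDs of 0.059, 0.075 and 0.086, each below percentile 1 of all probe sets. Their ranges were 1.28-fold for Hp, 1.29-fold for Cp and 1.46-fold for Fgb. For Cp this holds only for the probe set used, since another bright one ran from 12.15 to 13.32 (SD 0.23) and a dimmer one from 9.24 to 10.26 (SD 0.21).

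**Figure D1:**
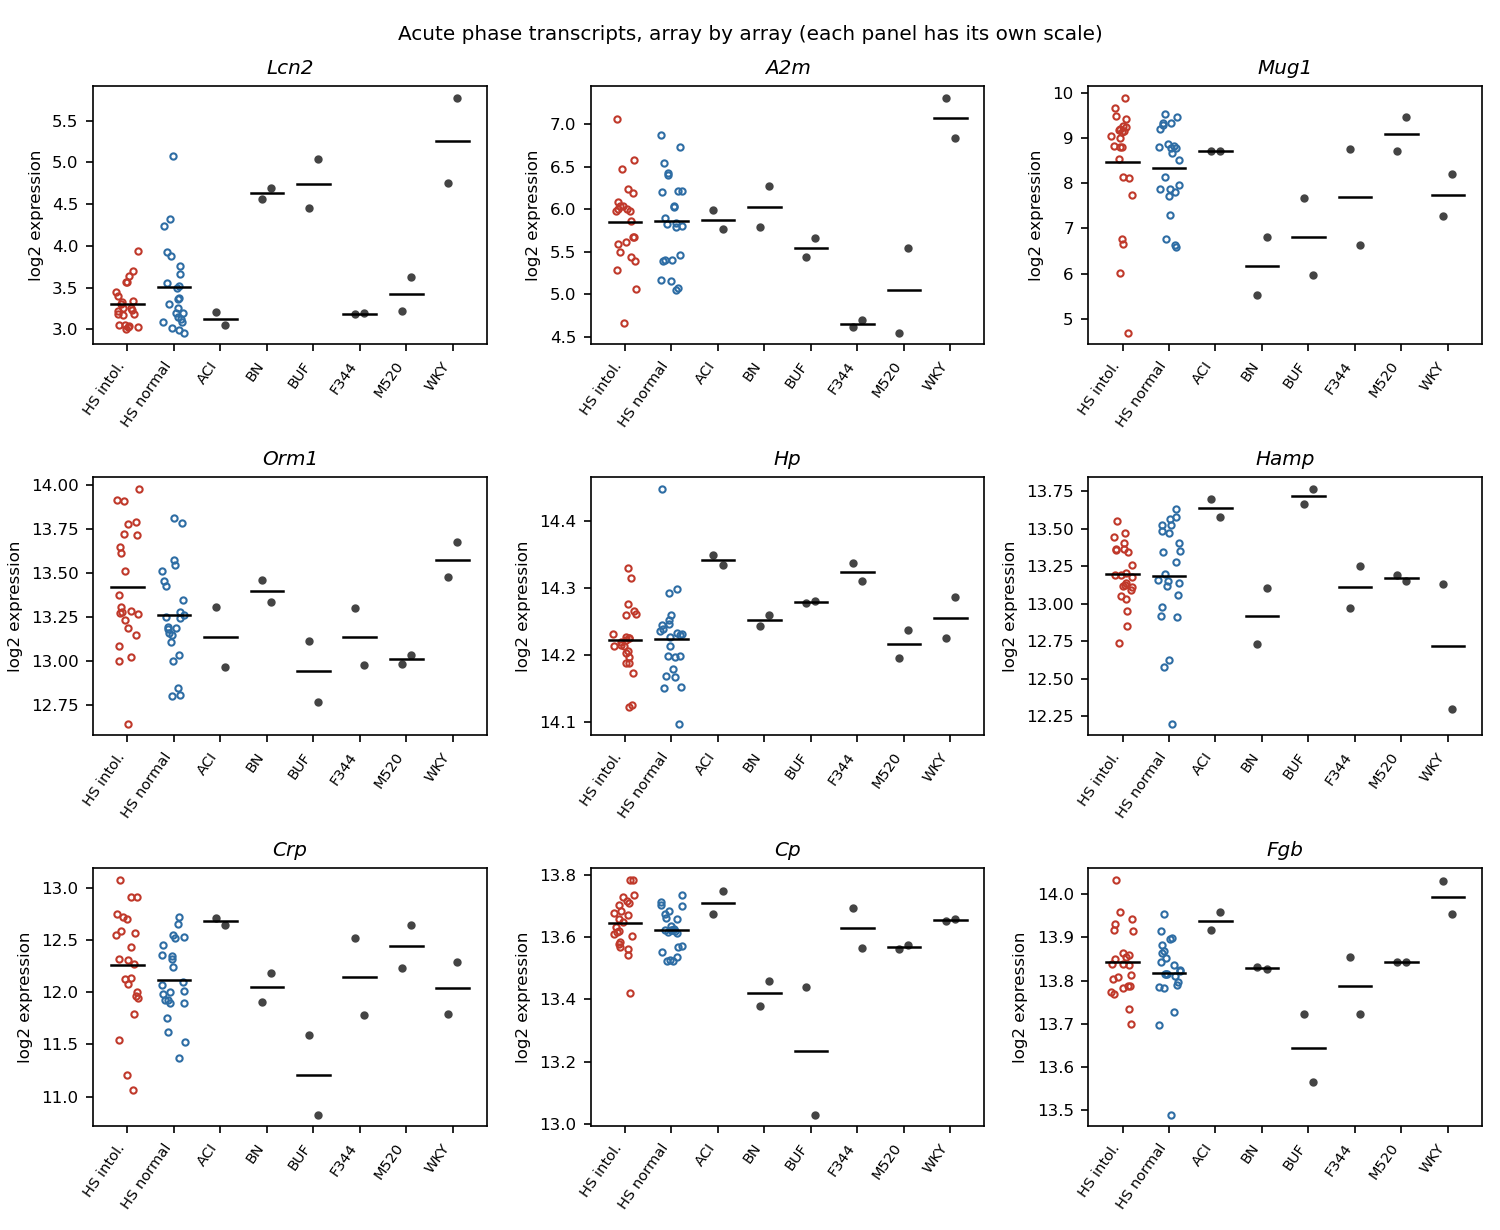
Log2 expression of each transcript on every array, with 1 panel per gene and its own vertical scale; open circles are HS rats (red, glucose-intolerant, 23; blue, glucose-normal, 23), filled circles the 2 arrays of each strain, and bars the group means. The HS groups overlap in every panel, both WKY arrays of A2m lie above the other 10 inbred arrays, and both BUF arrays of Crp lie below them.

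The first comparison asked whether these transcripts differ in liver with glucose tolerance in HS rats. None of the 9 passed limma's moderated test with Benjamini-Hochberg adjustment over all 31042 probe sets, where percent called was 0 across the table. Before adjustment, 2483 probe sets in all and 0 of the 9 had p under 0.05. The groups overlapped for every gene. The median difference of the 9 genes was 0.02, beside -0.01 over all probe sets.

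Orm1 and Lcn2 had the smallest p. Orm1 had a lowest, median and highest value of 12.65, 13.31 and 13.98 in intolerant rats, against 12.80, 13.24 and 13.82 in normal rats. The means were 13.42 ± 0.35 and 13.26 ± 0.28 (SD, n = 23 each), a difference of 0.16 ± 0.09 (SE; limma p = 0.0769, adjusted p = 0.655), with a permutation p of 0.0866, two-sided. Lcn2 ran over 3.001, 3.25 and 3.94 in intolerant rats, against 2.96, 3.37 and 5.08 in normal rats. Its means were 3.30 ± 0.25 and 3.50 ± 0.51 (SD, n = 23 each), and the difference was -0.20 ± 0.11 (SE; limma p = 0.0865, adjusted p = 0.669; permutation p = 0.0960). The spread lies mostly on 1 side: 0 intolerant and 3 normal rats were above 4, a level chosen after the values were seen.

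Crp ran over 11.07, 12.31 and 13.08 in intolerant rats and 11.38, 12.07 and 12.72 in normal rats (lowest, median, highest), a difference of 0.14 ± 0.13 (SE, adjusted p = 0.809). Mug1 ran over 4.70, 8.998 and 9.89 in intolerant rats and 6.60, 8.66 and 9.52 in normal rats. Its difference of 0.12 (adjusted p = 0.944) had the widest 95% interval, from -0.52 to 0.76. Under a level of 7, again chosen after seeing the values, lay 4 intolerant and 3 normal rats, so rats of low Mug1 occurred in both groups.

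Hamp means were 13.20 ± 0.20 for intolerant rats and 13.18 ± 0.36 for normal rats (SD, n = 23 each), with a 95% interval of the difference from -0.16 to 0.18. Those of A2m were 5.84 ± 0.52 for intolerant rats and 5.87 ± 0.54 for normal rats, with an interval from -0.32 to 0.28. The 3 steady probe sets had narrow intervals: -0.05 to 0.04 for Hp, -0.03 to 0.07 for Cp and -0.03 to 0.08 for Fgb. These are intervals of signal, and probe sets this bright may compress differences in transcript level.

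**Figure D2:**
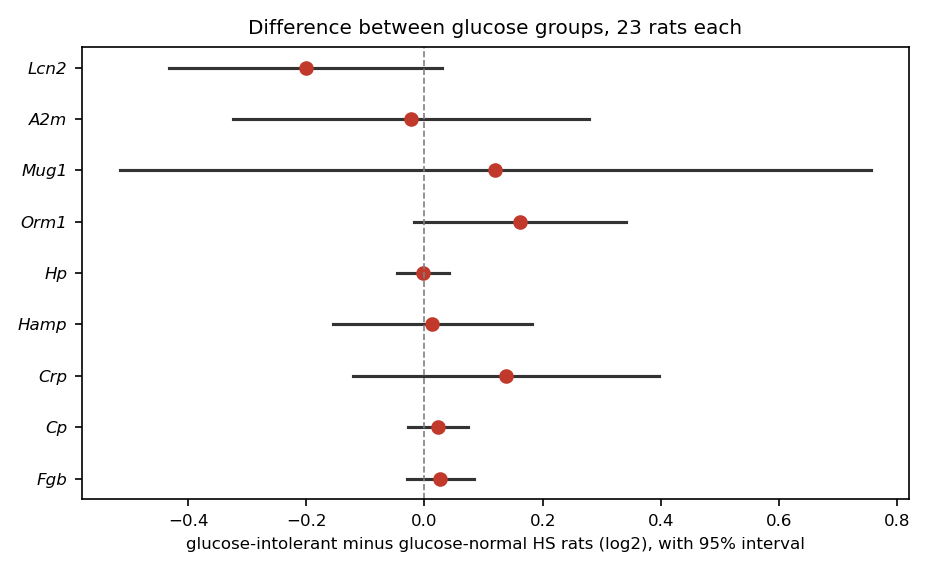
Glucose-intolerant minus glucose-normal HS rats, in log2 expression, for each transcript (point) with its 95% interval from limma (line), 23 rats a group. Every interval crosses 0, and that of Mug1, from -0.52 to 0.76, is the widest.

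The inbred strains were compared to see which transcripts differ in signal between strains. Strain sequence under the probes was not examined. Whether a strain's 2 rats had different litters or days is not in the labels, so each p-value reflects the spread between arrays alone. In limma's F test over the 6 strains, 3 of 9 genes passed, where 11.9% of all probe sets did: Lcn2, A2m and Crp. The median range of strain means was 1.0 for the 9 genes, beside 0.41 over all probe sets. Each strain was then set against the mean of the other 5, and 6 of 54 pairs of gene and strain passed. The 6 were 2 of 9 genes for WKY (4.74% of all probe sets), 2 for F344 (1.61%), 1 for ACI (2.42%) and 1 for BUF (5.76%), with 0 for BN (4.68%) and 0 for M520 (4.65%).

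Lcn2 fell into a high and a low set of strains. It was 4.75 and 5.77 on the WKY arrays, 4.45 and 5.04 in BUF and 4.56 and 4.69 in BN. It was 3.22 and 3.62 in M520, 3.18 and 3.20 in F344 and 3.21 and 3.05 in ACI, so no array of the first 3 strains overlapped one of the last 3. In the order of means, only the step between BN and M520 passed the test among neighbours (1.21, adjusted p = 0.0328). Against the other 5 strains, WKY was higher by 1.44 ± 0.22 (SE; 2.71-fold, adjusted p = 0.00314), a call that held without any 1 array, although the difference was 0.93 without WKY array 2 and 1.95 without WKY array 1. ACI differed by -1.12 (adjusted p = 0.0231) and F344 by -1.05 (adjusted p = 0.0398). The ACI call was lost without ACI array 1 (adjusted p = 0.261) or 2 (0.255). The F344 call was lost without either array of ACI, F344, BN or M520, with adjusted p from 0.0560 to 0.274.

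Most HS rats lay with the low strains. At or below the highest ACI, F344 or M520 array (3.62) lay 36 of the 46 HS rats, and 1 rat, glucose-normal, reached the lowest WKY, BUF or BN array (4.45). This grouping of strains was chosen after the values were seen. Because neutrophils also store lipocalin 2, their markers were looked at beside it. Of 14 neutrophil markers 8 were measured, and 1 was above the array median in WKY, BUF and M520 and 0 in the other groups. S100a9, a calprotectin subunit, averaged 5.97 in WKY, 5.62 in BUF, 5.54 in M520, 5.30 in F344, 4.98 in ACI and 4.85 in BN. It was the brightest of the 8, and 0 of the 8 passed the F test over strains (11.9% of all probe sets). Other markers ordered the strains differently: Camp was lowest in WKY (3.65), Csf3r highest in BN (3.64) and S100a8 highest in BUF (3.83). The summed level of the 8 ran over 7.05 to 7.37 in WKY, 7.05 to 7.19 in BUF and 6.64 to 6.94 in BN, and over 6.96 to 7.18 in M520, 6.84 to 7.001 in F344 and 6.75 to 6.84 in ACI. BN thus had high Lcn2 with a low neutrophil sum, and the part of neutrophils in the Lcn2 levels was not tested.

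A2m was highest in WKY. It was 7.31 and 6.84 on the WKY arrays, both above all other 10 inbred arrays. BN followed with 5.79 and 6.27, ACI with 5.99 and 5.77, BUF with 5.43 and 5.66, M520 with 4.55 and 5.54 and F344 with 4.61 and 4.70. WKY was higher than the other 5 by 1.65 ± 0.22 (SE; 3.13-fold, adjusted p = 0.00114), and the call held without any 1 array. F344 differed by -1.26 ± 0.22 (SE; adjusted p = 0.0135), a call lost without F344 array 1 (adjusted p = 0.146) or 2 (0.129). Between single strains, WKY exceeded F344 5.36-fold (adjusted p = 0.000556), M520 4.10-fold, BUF 2.89-fold and ACI 2.30-fold. BN exceeded F344 2.59-fold, and the difference of 1.05 between WKY and BN did not pass (adjusted p = 0.0731). No step between neighbours in the order passed. Only 2 of 46 HS rats reached the lower WKY array.

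The summed level of 12 Kupffer cell and macrophage markers ran over 13.3 to 13.6 in WKY, beside 12.5 to 13.8 in the other strains. That of 10 stellate cell markers ran over 11.4 to 12.1 in WKY, beside 10.6 to 11.7 in the others. Their part in the A2m and Lcn2 levels was not tested.

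Crp was lowest in BUF. Its 2 BUF arrays, at 11.59 and 10.83, lay below all other 10. ACI had 12.71 and 12.65, M520 12.23 and 12.65, F344 12.51 and 11.78, BN 11.90 and 12.19 and WKY 11.79 and 12.29. BUF differed from the other 5 strains by -1.06 ± 0.22 (SE; adjusted p = 0.0211), or 2.09-fold. Without BUF array 2 the difference was -0.68 with adjusted p = 0.443. ACI exceeded BUF 2.77-fold (adjusted p = 0.0151) and M520 exceeded it 2.35-fold (0.0345). The F test's adjusted p of 0.0475 was close to the threshold, and it did not pass without either array of ACI, BN or M520 or without BUF array 2 (0.0707 to 0.181). With the replicate number as a block it was 0.0655. Over the HS rats Crp also followed the leading residual axis described below (r = 0.837). On that axis BUF arrays 1 and 2 scored -1.12 and -2.96 HS standard deviations, and its part in the BUF level of Crp was not tested.

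Markers of other liver cells also differed in BUF, where 5.76% of all probe sets were called in either direction. Of 9 endothelial markers 3 were lower there than in the other 5 strains, Fcgr2b (-0.99), Lyve1 (-0.81) and Emcn (-0.55), with a summed level of 11.3 to 11.5 in BUF, beside 11.4 to 12.3 in the other strains. Of 12 Kupffer cell and macrophage markers 3 were lower, Mrc1 (-1.10), Clec4f (-0.70) and Csf1r (-0.76), and 1 was higher, Lyz2 (1.31). The sum was 13.3 on both BUF arrays. Sums were taken on the linear scale, so bright markers weigh most, here Lyz2 (12.2 in BUF). Of 10 stellate cell markers 2 were lower, Col3a1 (-1.22) and Lrat (-0.96), with a sum of 10.6 to 10.9 in BUF, beside 10.9 to 12.1 in the others. Their part in the BUF levels of Crp and Hamp was not tested.

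Hamp ordered the strains differently. It was 13.67 and 13.77 in BUF, 13.69 and 13.58 in ACI, 13.19 and 13.15 in M520, 12.97 and 13.25 in F344, 12.73 and 13.10 in BN and 13.13 and 12.30 in WKY. BUF exceeded WKY by 1.0 ± 0.23 (SE; 2.0-fold, adjusted p = 0.0268), the 1 of 15 strain pairs that passed. The F test gave an adjusted p of 0.0504, and without WKY array 1 or 2 it passed, at 0.00461 and 0.0233.

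Mug1 had the widest range of strain means of the 9 genes (2.92) and wide gaps between arrays of a strain. It was 8.72 and 9.47 in M520, 8.71 and 8.71 in ACI, 7.27 and 8.21 in WKY, 8.75 and 6.64 in F344, 7.66 and 5.96 in BUF and 5.52 and 6.82 in BN. Arrays of 1 strain lay up to 2.11 apart, in F344. The F test gave an adjusted p of 0.0670, and M520 over BN, 7.59-fold, was the 1 of 15 pairs that passed (adjusted p = 0.0313). Without BUF array 1 or either F344 array the F test passed, at 0.0219 to 0.0288.

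Orm1 was 13.48 and 13.68 in WKY, above all other 10 arrays, which ran from 12.77 in BUF to 13.46 in BN. The difference of WKY from the other 5 was 0.45 (adjusted p = 0.0794). Hp stayed between 14.20 and 14.35 over the 12 arrays, with an F test adjusted p of 0.902. Cp was 13.44 and 13.03 in BUF, and its other arrays lay between 13.38 and 13.75 (F test adjusted p = 0.169). Without BUF array 1 the range of Cp strain means was 0.68 and the F test passed (adjusted p = 0.0394), and without BUF array 2 the range was 0.29. Fgb had strain means from 13.64 in BUF to 13.99 in WKY (F test adjusted p = 0.298). Of 15 pairs of strains, 9 passed for Lcn2, 5 for A2m, 2 for Crp and 0 for Orm1, Hp, Cp or Fgb. The share of all probe sets that passed in each pair was not computed. These counts, and those of Hamp and Mug1, therefore have no table-wide rate beside them.

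Whether the transcripts vary together was asked over the 46 HS rats. Each member was used in turn as a predictor of every other probe set, with the glucose group as covariate, and a pair counted as called where both directions passed. Of 36 pairs, 1 was called, Mug1 with Crp. Their Pearson r was 0.876 and Spearman rho 0.852, each with a permutation p of 1e-05, the smallest that 100000 resamples can give. It was 0.835 without the 2 rats farthest in Mug1, 0.901 in intolerant rats and 0.834 in normal rats, and the slopes' adjusted p-values were 7.68e-14 and 1.33e-13 in limma.

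This pair stands on a large shared axis. The slope on Mug1 was called for 27.1% of all probe sets and that on Crp for 26%, so neither gene's call is particular to the pair. The leading residual axis of the HS arrays, which carried 17.9% of the variance and was built without these genes' probe sets, correlated with Mug1 at r = 0.868 and with Crp at 0.837. The probe sets used for the other 7 genes correlated with it between -0.26 and 0.31. Another bright Cp probe set, however, correlated with it at r = 0.799. With the axis also removed, Mug1 and Crp still correlated at 0.561, and the slope's adjusted p was 0.00774. On this axis BUF array 2 had a score of -2.96 HS standard deviations, F344 array 2 -1.78, BN array 1 -1.15 and BUF array 1 -1.12, and these include arrays of low Crp or Mug1. RNA quality, scan order and the like were not given, so what moves the axis was not tested.

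The other predictors called few probe sets: 0% for Lcn2, 0% for A2m, 0.0161% for Orm1, 0.00322% for Hp, 0.00322% for Hamp, 0.0290% for Cp and 0.615% for Fgb. Fgb passed in the fit on Crp (adjusted p = 0.0189), but Crp did not pass in the fit on Fgb (0.0707), with r = 0.480, rho = 0.479 and permutation p = 0.000730. A2m and Fgb had r = 0.391 and rho = 0.342 (permutation p = 0.00684) and limma adjusted p of 0.134 and 0.416. Lcn2 and Mug1 had r = -0.321 (permutation p = 0.0315), the most negative r of the 36, and rho = -0.239 (permutation p = 0.110). The most negative rho was that of A2m with Orm1, at -0.256. Over the 36 pairs the median r was 0.05, 19 were above 0 and 8 had an unadjusted permutation p under 0.05.

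**Figure D3:**
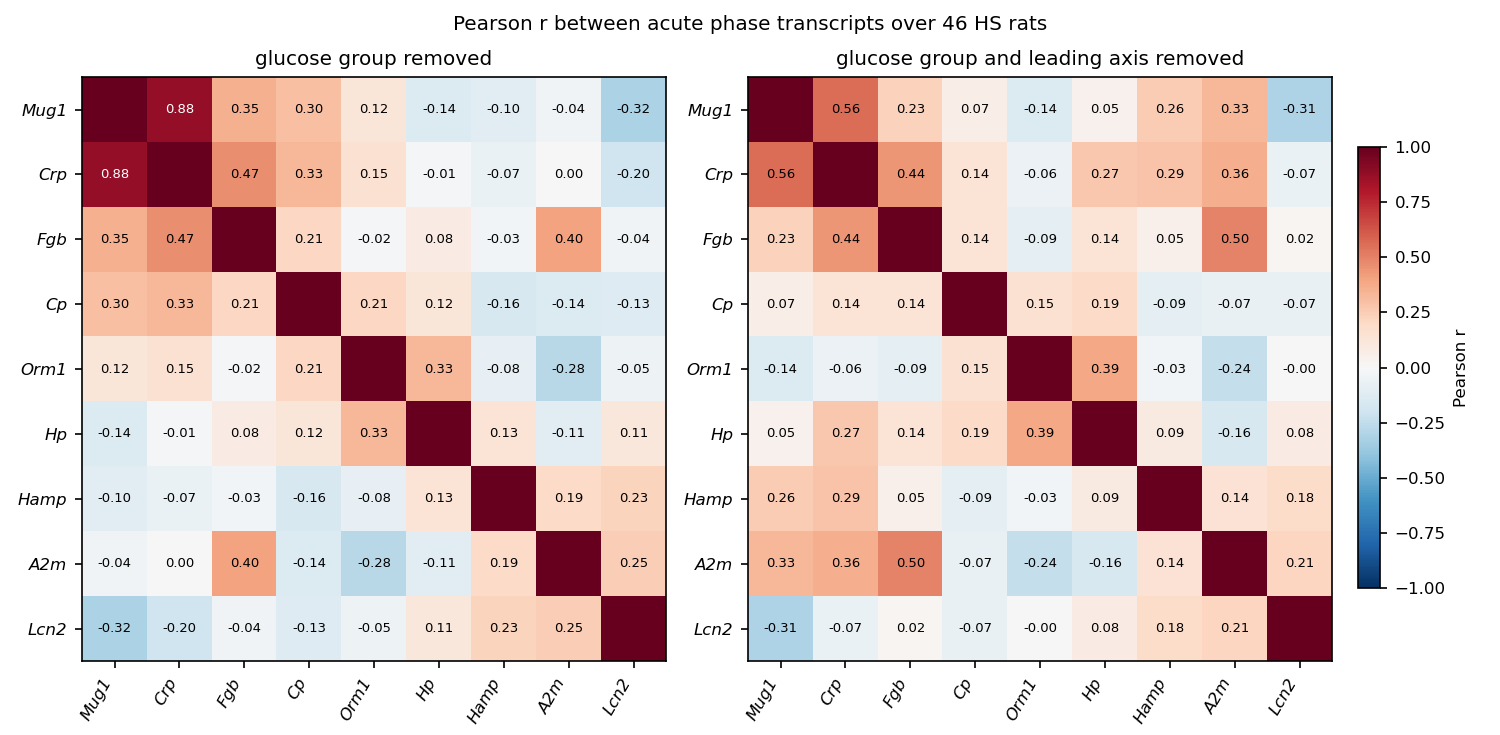
Pearson r between the 9 transcripts over 46 HS rats, after removing the glucose group means (left) and also the leading residual axis (right); colour runs from -1 (blue) to 1 (red). Mug1 with Crp is the strongest pair in both panels.

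For each gene the 3 non-member genes most like it over the HS rats were taken, by Pearson r after removing group means, among 9358 genes above the median level. The r values that follow are those over the 46 rats before that removal. The closest for Fgb were the other 2 fibrinogen chains. Fgg correlated with it at r = 0.901 and rho = 0.848 (0.865 without the 2 farthest rats, 0.882 in intolerant and 0.915 in normal rats; limma adjusted p = 5.12e-07). Fga did so at r = 0.853 and rho = 0.898 (adjusted p = 5.88e-07). Fabp1, a fatty acid binding protein, followed at r = 0.712 (adjusted p = 0.00211). The promoters of Fgb and Fga shown above hold the STAT and C/EBP letters searched for, and that of Fgg holds neither. Whether Fgg holds another form of these sites was not examined. Strain means of Fga ran from 13.77 in BUF to 14.06 in WKY and of Fgg from 13.79 in BUF to 14.03 in WKY, with BUF lowest and WKY highest as for Fgb, and neither passed the F test.

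For Hamp the closest was Smad7, an inhibitory SMAD of the BMP pathway, with r = 0.586 and rho = 0.618. Its permutation p of 2e-05 does not allow for its choice among 9358 genes by r in the same rats. Limma's adjusted p over all probe sets was 0.146. Orm1 was most like Scp2 (r = 0.662, adjusted p = 0.0540), Them7 and Mdh1, of which Them7 (0.0277) and Mdh1 (0.0483) passed. Cp was most like St6gal1, a sialyltransferase (r = 0.637, adjusted p = 0.0411), and Sqor (r = 0.596, adjusted p = 0.0436). Mug1 was most like Magt1 (r = 0.923), Wac and Adipor2, and Crp most like Akirin2 (r = 0.885), Laptm4a and Entr1, in the 2 fits that called many probe sets of the table. The closest genes to A2m, Lcn2 and Hp, led by Ssr3 (r = 0.589), Ube2z (r = 0.631) and Slc39a1 (r = 0.516), did not pass.

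**Figure D4:**
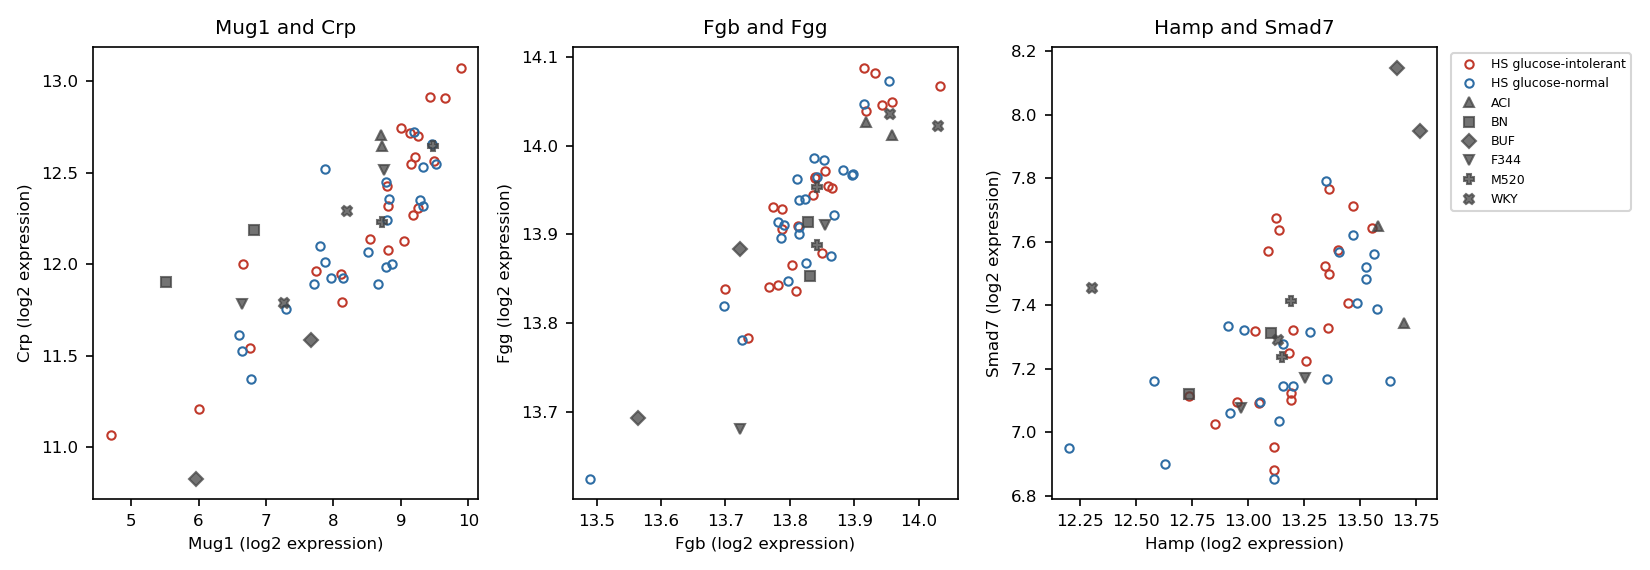
Log2 expression of Crp against Mug1, Fgg against Fgb and Smad7 against Hamp; open circles are HS rats (red, intolerant; blue, normal) and grey symbols inbred arrays. Over the HS rats the Pearson r is 0.876, 0.901 and 0.586.

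The rest of the acute phase programme was read from lists chosen with earlier results of these data known. No list had a gene called between intolerant and normal rats. Of 29 measured genes listed as further positive acute phase genes, 4 passed the F test over strains, beside 11.9% of all probe sets. Whether each listed gene rises or falls in the acute phase of the rat was not tested. Serpina3m, a serine protease inhibitor, averaged 9.96 in WKY, lower than in the other 5 strains by 2.21 on the log2 scale (limma adjusted p = 1.20e-06). WKY thus had the highest A2m and Lcn2 and the lowest Serpina3m. The WKY arrays of Serpina3m read 9.78 and 10.14, and the lowest HS rat read 12.02, so no HS rat came near WKY. Serpina3n averaged 13.07 in WKY, between ACI (12.83) and BN (13.24). Lbp, which carries bacterial lipopolysaccharide, was higher in BN (0.69) and lower in BUF (-0.88). Cd14, its partner receptor, and Slc39a14, a zinc and iron importer, were lower in M520 (-0.77 and -0.60). The other 25 did not pass the F test.

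Of 15 negative acute phase genes 5 passed the F test (11.9% of all probe sets), and 4 were lower in M520 (4.65% of all probe sets in either direction): Apoa2 (-0.64), Afm (-0.68), Serpina6 (-0.71) and Apoa1 (-0.69). Of 41 genes of interleukin-6 and interleukin-1 signalling 7 passed, beside the same 11.9%. ACI had the most calls, 5 of 41 (2.42% of all probe sets), with Cxcl1, a neutrophil chemokine (1.08), and Tnfaip3, an NF-kB inhibitor (0.81), higher and Il1r1, an interleukin-1 receptor (-0.52), and Cebpa (-0.57) lower among them. Il6r, the interleukin-6 receptor, was higher in BN (0.98, adjusted p = 0.0166) and lower in BUF (-0.87, adjusted p = 0.0307), and Nfkbiz, an NF-kB cofactor, was lower in BUF (-1.24, adjusted p = 0.00817). Of 24 hepcidin and iron genes 5 passed the F test (11.9% of all probe sets), and 3 were higher in BUF (5.76% in either direction): Smad7 (0.74, adjusted p = 0.00470), Atoh8, a transcription factor of the hepcidin pathway (0.65, adjusted p = 0.0223), and Slc11a2, an iron transporter (0.41, adjusted p = 0.0296). Slc11a2 was higher in F344 as well (0.47, adjusted p = 0.0286) and lower in WKY (-0.39, adjusted p = 0.0373). Hamp in BUF was not called against the other 5 strains (0.61, adjusted p = 0.0687). In the fit on Fgb, which called 0.615% of all probe sets, 3 of the 29 genes listed as positive passed, Fgg, Fga and Pzp. So did 3 of the 15 listed as negative, Igf1, Afm and Serpina6, and all 6 rose with Fgb.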

How the data were processed

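Liver RNA of 58 rats was amplified with a two-cycle kit and hybridised to Affymetrix arrays, per the labels' protocols. The authors' deposited table holds log2 expression for 31042 probe sets. Partek appears in the submitters' processing notes with no version, and how background, summarisation and normalisation were handled is not stated there or in the labels. Genes came from the platform annotation, which gives 20826 probe sets 1 symbol, 436 several and 9780 none. HS rats were grouped by title and design text, since 1 description of the intolerant rats reads both ways.

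Linear models were fitted to the deposited values with lmFit and eBayes of limma 3.58.1 in R 4.3.3, with Benjamini-Hochberg adjustment over all probe sets and a threshold of 0.05. The 46 HS arrays (44 residual degrees of freedom) and the 12 inbred arrays (6) were fitted apart. Permutation tests were two-sided with 100000 resamples (Python 3.11.15, scipy 1.17.1). The fits were checked on simulated data. The named genes are the 9 members, up to 4 called genes of smallest p per list and comparison, and the 3 genes most like each member. The members and lists were chosen with earlier results of these data known. Alternatives were quantile normalisation, median centring, brighter probe sets only, 1 probe set per gene, trend and robust variance, array weights, a residual component as covariate, a replicate block, other probe sets and leaving out arrays. No scan date was at hand for a test of batches. Arrays have no read depth, and their number limits the precision.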

Additional observations from a re-analysis of the deposited data

How the results depend on the processing

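The count of called genes between glucose groups was 0 under every alternative run, and Mug1 with Crp was the 1 called pair throughout. Signs turned for differences near 0: A2m was 0.0099 with array weights, Hp was 0.0069 with median centring and 0.0031 with array weights, and Mug1 was -0.0053 with the probe set annotated to Mug1, Cpamd8 and Mug1l1, an alternative chosen after seeing the data. The 6 pairs of gene and strain became 3 among brighter probe sets only, where Lcn2 was too dim to be tested. Leaving out 1 inbred array gave 2 to 5 genes in the F test (3 with all arrays; 5 without BUF array 1) and 4 to 11 pairs (11 without BUF array 1 or either WKY array); the cause was not tested. The replicate block gave 2 genes and 8 pairs. Same-numbered arrays deviated together with correlations of -0.15 to 0.42 (median -0.06) over 15 strain pairs. Whether the numbers mark a shared batch was not tested. Hamp passed the F test among brighter probe sets (adjusted p = 0.0499), with 1 probe set per gene (0.0443) and with trend and robust variance (0.0428), under which Crp did not pass (0.0701). Lcn2 lies near the floor of the scale, so its differences may be understated.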

Other observations

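Other probe sets of the same genes did not always follow the ones used. The probe set annotated to Mug1, Cpamd8 and Mug1l1 was bright and steady, between 14.1 and 14.4 over all 58 arrays, and correlated with the Mug1 probe set used at r = 0.352 over the HS rats, a description with no test. Its strain means spanned 0.07, against 2.92 for the probe set used. A second Cp probe set averaged 12.9 over the HS rats, correlated with the one used at r = 0.760 and with the leading residual axis at r = 0.799, where the one used had 0.307. Its strain means spanned 1.19 (adjusted p = 0.0747 in limma's F test), against 0.48 for the one used. Another Cp probe set averaged 9.75 and correlated with the one used at r = 0.235. The other 2 Fgb probe sets were dim, at 3.57 and 2.91, and correlated with the bright one at -0.186 and -0.191.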
